A study of Homo sapiens with 8 samples.

Results

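The 7 genes PRMT1, PRMT2, PRMT3, PRMT5, PRMT6, PRMT7 and CARM1 encode protein arginine methyltransferases and were taken by symbol from a table of 18388 genes. All 7 passed the read filter (a minimum of 100 reads in 3 or more of the 6 compared libraries), as did 10138 genes in total. The family was selected on earlier results of the same comparison, chosen by its total and newly synthesized RNA, so its values are given as a description without a test. RNA was measured by SLAM-Seq in U-2OS Tet-ON cells, a human osteosarcoma line that carries the tetracycline-regulated transactivator. Cells received control siRNA (siControl) or a commercial siRNA reagent against CGGBP1 (siCGGBP1) at 50 nM for 72 h. The nucleoside analogue 4-thiouridine (4sU) was added at 75 µM for the last 60 min, with 3 replicates in each group. A single siControl library was made without 4sU (0 µM) and another with 200 µM 4sU, and neither has a siCGGBP1 counterpart. The titles of all libraries name DMSO, so both groups share it, and no further agent is given. Whether the replicates came from separate cultures is not given in the labels, and the spread between them may be technical.

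Protein arginine methyltransferases transfer methyl groups from S-adenosylmethionine to the guanidino nitrogens of arginine. Type I enzymes (PRMT1, PRMT2, PRMT3, CARM1 and PRMT6) form asymmetric dimethylarginine, the type II enzyme PRMT5 forms symmetric dimethylarginine, and the type III enzyme PRMT7 stops at monomethylarginine. Their substrates include histones, splicing factors and other RNA-binding proteins, and PRMT1 and PRMT5 are often raised in cancer cells. CGGBP1 is a nuclear protein that binds CGG trinucleotide repeats. In SLAM-Seq, iodoacetamide alkylates the 4sU incorporated during the labelling pulse, and these bases are read as C in place of T. A gene is therefore described by its reads (total RNA), its T-to-C conversions among the T positions covered by reads, its reads with at least 2 conversions and its new-to-total RNA ratio.

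CGG repeats were searched in the RefSeq promoter windows of GRCh38.p14, which reach from 250 bases before to 50 bases after each start site. All 7 genes matched, with 9 windows in total. An uninterrupted run of at least 2 CGG units, on either strand (CGGCGG or CCGCCG), was present in a window of CARM1, PRMT3, PRMT6 and PRMT7. The share was 55.6% of the 9 windows, where the PRMT7 windows overlap each other, and 29.6% of all 35116 windows. The 9 windows had a content of G and C between 58% and 82.3%, beside a median of 58.7% over all windows. The part of this content in the share was not tested. Runs of at least 3 units occurred in CARM1 alone among the 7, and in 6.21% of all windows. The upstream parts of the CARM1 and PRMT6 windows are printed because they hold the longest run among the 7 genes and a run of the shortest length counted, and because no annotated exon overlaps them. They cover chr19:10871303-10871552 and chr1:107056424-107056673, both on the plus strand, 5′ to 3′, with the repeats in capitals.
CARM1: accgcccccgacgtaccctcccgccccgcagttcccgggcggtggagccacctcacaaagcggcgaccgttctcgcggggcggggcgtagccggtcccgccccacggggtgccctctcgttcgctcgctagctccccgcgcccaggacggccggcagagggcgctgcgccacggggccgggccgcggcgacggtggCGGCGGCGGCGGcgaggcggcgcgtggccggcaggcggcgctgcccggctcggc
PRMT6: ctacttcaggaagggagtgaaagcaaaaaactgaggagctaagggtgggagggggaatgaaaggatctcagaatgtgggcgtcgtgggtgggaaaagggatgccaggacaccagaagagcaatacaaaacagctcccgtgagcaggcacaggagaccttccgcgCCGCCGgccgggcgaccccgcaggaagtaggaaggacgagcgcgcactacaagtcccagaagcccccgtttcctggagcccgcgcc
The CARM1 run holds 4 CGG units and ends 42 bases before the start site. The PRMT6 run is CCG on the printed strand and ends 80 bases before the start site. Over its whole length this CARM1 window had 4 runs of at least 2 units and the PRMT6 window had 2. The printed parts hold 1 run each, and the others reach into the bases after the start site. PRMT7 and PRMT3 had runs of 2 units, and the windows of PRMT1, PRMT2 and PRMT5 had no repeated unit. The PRMT7 windows overlap exons of SLC7A6OS, a gene on the opposite strand that starts 4 bases away, and are not printed. CARM1 and PRMT7 were lower and PRMT6 and PRMT3 were higher in mean total RNA of siCGGBP1 cells, so the genes with a run lay on both sides. The groups overlapped for CARM1 and PRMT3, the standard errors are given below, and a link between runs and direction was not tested.

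The libraries held 10127519 to 14221516 gene reads at 75 µM 4sU, 19011714 at 0 µM and 11341561 at 200 µM. Levels of total RNA are given as RPM, reads per 1000000 gene reads of the library. CGGBP1 itself fell from 73.9 to 106 RPM in the siControl libraries to 10.0 to 31.0 in the siCGGBP1 libraries (log2 fold change -2.22, standard error 0.39, adjusted p = 0.0138, edgeR). The mesenchymal gene VIM was abundant in every library. The bone matrix gene COL1A1 was too, and it was higher with the knockdown. At 75 µM it had 604 to 814 RPM in siControl and 1482 to 2021 in siCGGBP1 (log2 fold change 1.31, adjusted p = 0.00353, edgeR). Its part in the values of the family was not tested. The osteoblast factor RUNX2 was detected in every library, CDH1 had no read and the leukocyte gene PTPRC stayed at or below 0.681 RPM. Conversions reached 0.183 to 0.263 per 100 covered T at 75 µM, 0.0638 at 0 µM and 0.218 at 200 µM. Replicate 3 stood apart in both groups. Over log2 reads of the tested genes it correlated with the other replicates of its group at r = 0.845 to 0.851 in siControl and 0.783 to 0.784 in siCGGBP1, against 0.949 and 0.938 between replicates 1 and 2. siControl 3 and siCGGBP1 3 gave a new-to-total ratio of 0 to 57.2% and 59.2% of tested genes, a share that was 22.5% to 31.9% elsewhere at 75 µM. Of tested genes with at least 20 conversions, 41.0% and 39.6% had no read with 2 conversions in siControl 3 and siCGGBP1 3, against 9.02% to 21.5% in the other 4 libraries. Reads carry no molecular identifiers and are not independent molecules, so the intervals given here cover counting error only.

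The family spanned more than an order of magnitude in siControl cells. Divided by gene length, PRMT1 had the highest level with 87.8 RPM per kilobase, followed by PRMT5 with 35.7, PRMT2 with 27.4, CARM1 with 19.1, PRMT6 with 11.9, PRMT7 with 4.58 and PRMT3 with 2.72. The libraries sample the 3′ ends of transcripts, where reads do not grow with length, and on the scale of RPM the order was the same except that PRMT2 (110 ± 12.8, SD, n = 3) stood above PRMT5 (90.4 ± 14.6, SD, n = 3). In RPM, the ranges of neighbours in the order overlapped for PRMT1 and PRMT2, for PRMT2 and PRMT5, and for PRMT5 and CARM1. CARM1, PRMT6, PRMT7 and PRMT3 followed each other without overlap of their siControl ranges. PRMT6 was the steadiest gene among siControl replicates, with a coefficient of variation of 2.44%, and PRMT1 the most variable with 35.5%.

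**Figure D1:**
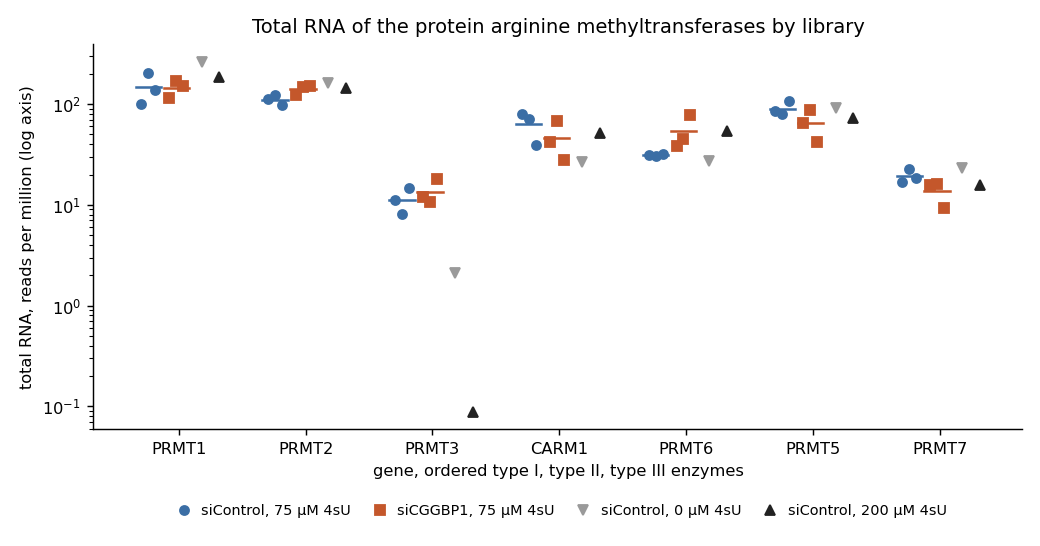
Total RNA of the 7 genes in each of the 8 libraries, in RPM on a log axis, with the points of a group in replicate order and a short line at the mean of each group of 3 replicates. The siCGGBP1 points of PRMT2 and PRMT6 lie above all siControl points at 75 µM, those of PRMT7 lie below them, and the groups overlap for the other 4 genes.

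Total RNA of the family differed little between the groups. PRMT6 and PRMT2 were higher and PRMT7 was lower in every siCGGBP1 library than in every siControl library, while PRMT5 and CARM1 were lower in 7 of the 9 pairs of libraries, and PRMT1 and PRMT3 were mixed. The log2 fold changes ranged from -0.51 for PRMT7 to 0.78 for PRMT6. Groups without overlap were found for 12.1% of tested genes towards higher and 12.1% towards lower values in siCGGBP1. None of the 7 was among the 143 genes (1.41%) called by edgeR's quasi-likelihood test, where a call needs an adjusted p below 0.05 and a log2 fold change beyond 1 in either direction, or among the 1.79% with an adjusted p under 0.05 at any fold. PRMT6 was the 1 member with an unadjusted p under 0.05, as were 16.4% of all tested genes. DESeq2's Wald test called 3.66% of tested genes and also none of the 7. In bulk RNA, fewer cells of a kind and less RNA per cell cannot be told apart.

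Counts of new reads differed more between replicates than total reads did. The biological coefficient of variation, the spread between replicates that the fit estimates over all tested genes, was 1.78 for new reads and 0.399 for total reads. New reads rest on an estimated ratio, which was 0 for 22.5% to 59.2% of tested genes in a 75 µM library. Their spread therefore also holds the error of that estimate. PRMT7 had at most 2 conversions in a siCGGBP1 library, PRMT1 had new reads in 2 siCGGBP1 libraries and in no siControl library, PRMT3 was dominated by 1 siControl library and PRMT5 had no conversion rate above that of the 0 µM library. edgeR called 5 genes in newly synthesized RNA, 0.0493% of those tested, with none of the 7 among them, although PRMT7 and PRMT1 were 2 of the 319 genes (3.15%) with an unadjusted p under 0.05. DESeq2's Wald test called 17 genes, 0.168%, and PRMT7 was among these. Since the family was picked with this contrast in view, these counts are a description.

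**Figure D2:**
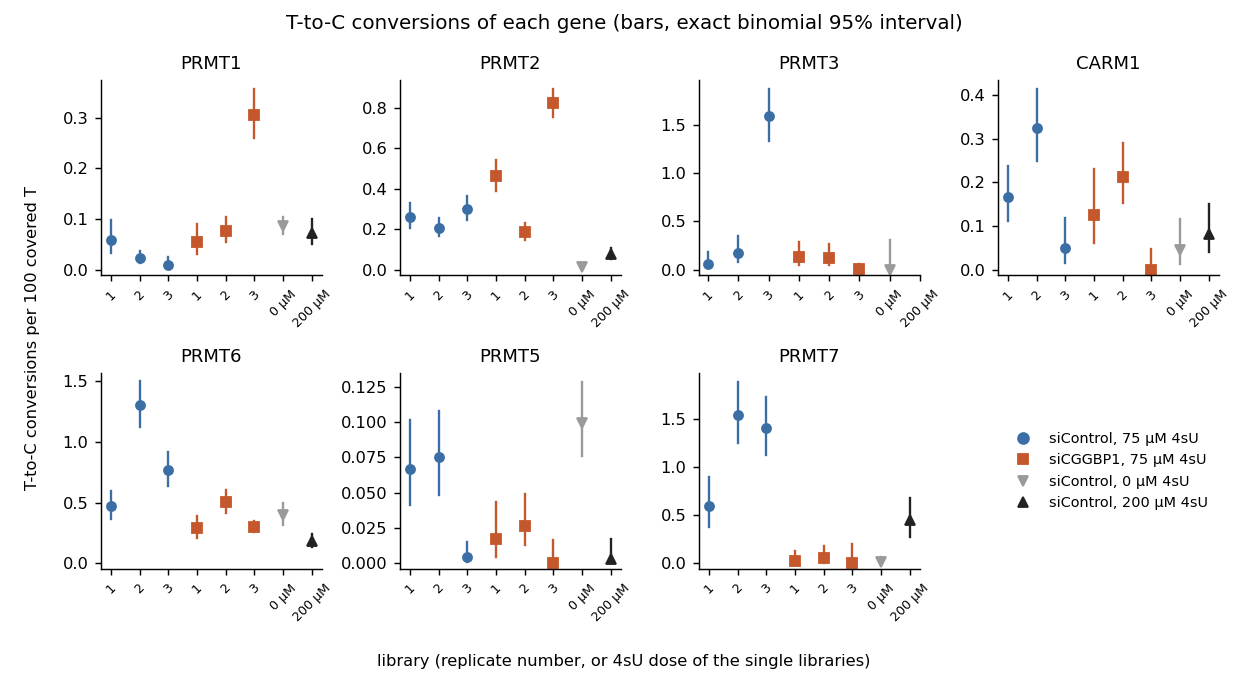
T-to-C conversions per 100 covered T of each gene in each library, on a separate axis for each gene, with exact (Clopper-Pearson) binomial 95% intervals as bars, and without the 200 µM library for PRMT3, which held 1 read. PRMT7 reached 0.598 to 1.54 in the siControl libraries and at most 0.051 in the siCGGBP1 libraries, while PRMT5 at 75 µM stayed below its 0 µM value in all 6 libraries.

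PRMT1 (ENSG00000126457, chr19:49675786-49689029, plus strand) produces most of the asymmetric dimethylarginine of mammalian cells. Its total RNA stood at 101, 205 and 138 RPM in siControl 1 to 3 and at 116, 170.3 and 150.1 in siCGGBP1 1 to 3. The siCGGBP1 libraries lay inside the siControl range, and the log2 fold change was -0.04 (standard error 0.27). Conversions set siCGGBP1 3 apart. PRMT1 had 15, 14 and 4 conversions in siControl 1 to 3, and 16, 38 and 157 in siCGGBP1 1 to 3. Reads with at least 2 conversions were absent from all siControl libraries and numbered 0, 12 and 33 in siCGGBP1 1 to 3. The 111 conversions in the deeper 0 µM library came to 0.086 per 100 covered T (interval 0.071 to 0.104) with no read of 2 conversions. siCGGBP1 3, at 0.306 (interval 0.26 to 0.357), was the only 75 µM library above that level. The new-to-total ratio was 0 in the siControl libraries and 0%, 1.00% and 7.27% in siCGGBP1 1 to 3. Against a chosen floor of 3 reads in each siControl library, new reads were 14.1-fold higher in siCGGBP1, and 2.86-fold higher without siCGGBP1 3. These folds are not limits, since the upper credible limits in siControl 1 to 3 (0.77%, 0.25% and 0.38%) allow more than 3 new reads. Without siCGGBP1 3, only the 20 new reads of siCGGBP1 2 remained, as siCGGBP1 1 had 0. At 200 µM 4sU the ratio was 0 again, with 36 conversions.

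PRMT2 (ENSG00000160310, chr21:46635595-46665124, plus strand), a type I enzyme with an SH3 domain that acts as a nuclear receptor coactivator, was the second gene of the order in RPM. It had 111, 123 and 97.0 RPM in siControl and 124, 149 and 152 in siCGGBP1. All siCGGBP1 libraries were higher, the closest pair being 123 and 124, and the log2 fold change was 0.35 (standard error 0.21). The library without 4sU had 163 RPM, above all 6 compared libraries. Label was clear in PRMT2 at 75 µM. The conversions numbered 71, 81 and 102 over the siControl libraries and 144, 86 and 535.5 over the siCGGBP1 libraries, and every library exceeded the 0 µM rate of 0.015 per 100 covered T. The ratio was 5.41%, 4.84% and 8.36% in siControl and 9.19%, 2.83% and 16.81% in siCGGBP1, so the groups overlapped. Reads with at least 2 conversions numbered 1, 0 and 37 in siControl and 35, 6 and 200 in siCGGBP1. The log2 fold change of new reads was 1.02 (standard error 1.3), below its own standard error. It was 0.20 without siCGGBP1 3, and 2.45 when reads with at least 2 conversions were counted.

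PRMT3 (ENSG00000185238, chr11:20387558-20509338, plus strand), a cytosolic enzyme with a zinc finger that methylates a protein of the small ribosomal subunit, was the least abundant member. Its total RNA was 11.2, 8.10 and 14.6 RPM in siControl and 11.8, 10.6 and 18.1 in siCGGBP1, a log2 fold change of 0.24 (standard error 0.60) with overlapping groups. It had 40 reads at 0 µM and 1 read at 200 µM. A single library set its newly synthesized RNA. siControl 3 had 138 conversions in 175 reads, against 3 and 8 in the other siControl libraries and 6, 6 and 1 in siCGGBP1. None of the 175 reads carried 2 conversions, and the ratio in siControl 3 was 100%. In the other libraries the ratio was 0% and 6.16% in siControl and 3.28%, 3.42% and 0% in siCGGBP1. The log2 fold change of new reads was -4.36 (standard error 2.98) with siControl 3 and -0.02 without it.

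CARM1 (ENSG00000142453, chr19:10871553-10923075, plus strand), also called PRMT4, methylates histone H3 and transcriptional coactivators. Its total RNA was 79.8, 71.7 and 39.4 RPM in siControl and 41.6, 67.7 and 28.0 in siCGGBP1. Replicate 3 was the lowest library of each group and the groups overlapped, with a log2 fold change of -0.49 (standard error 0.37). The single libraries had 26.6 RPM at 0 µM and 51.8 at 200 µM, so the siCGGBP1 libraries lay within the span of the siControl libraries of all doses. Conversions numbered 30, 62 and 5 in siControl and 10, 40 and 0 in siCGGBP1. Per 100 covered T this was 0.166, 0.323 and 0.05 in siControl and 0.126, 0.213 and 0 in siCGGBP1, with overlapping groups. The ratio was 1.70%, 7.78% and 0% in siControl and 1.58%, 2.29% and 0% in siCGGBP1. The log2 fold change of new reads was -1.62 (standard error 3.11), and it was 0.09 without siControl 2, which held 67 new reads.

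PRMT6 (ENSG00000198890, chr1:107056674-107067636, plus strand) is a nuclear enzyme that methylates histone H3 and itself. Its log2 fold change of total RNA was the highest of the family, with 31.1, 30.2 and 31.7 RPM in siControl against 38.7, 44.7 and 77.7 in siCGGBP1. The siControl libraries at 75 µM were nearly equal and all siCGGBP1 libraries were higher, by 1.71-fold in the fit (log2 fold change 0.78, standard error 0.34). The siControl library at 200 µM 4sU had 53.7 RPM, which was above 2 of the 3 siCGGBP1 libraries. The ratio was lower instead, at 13.16%, 31.82% and 39.88% in siControl and 7.74%, 12.32% and 10.86% in siCGGBP1, with every siCGGBP1 value below every siControl value at 75 µM. Such a gap in the ratio at 75 µM was found for 4.25% of tested genes. At 200 µM 4sU the siControl ratio was 7.60%, below all 3 siCGGBP1 values. Conversions numbered 66, 194 and 118 in siControl and 46, 113 and 169 in siCGGBP1, and reads with at least 2 conversions 15, 49 and 0 in siControl and 1, 26 and 0 in siCGGBP1. PRMT6 had the highest background of the family, with 82 conversions at 0 µM, or 0.4 per 100 covered T (interval 0.318 to 0.496). siCGGBP1 1 (0.289) and siCGGBP1 3 (0.297) lay below that background. With more total RNA and a lower ratio, new reads had a log2 fold change of -0.66 (standard error 1.60), smaller than its standard error.

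**Figure D3:**
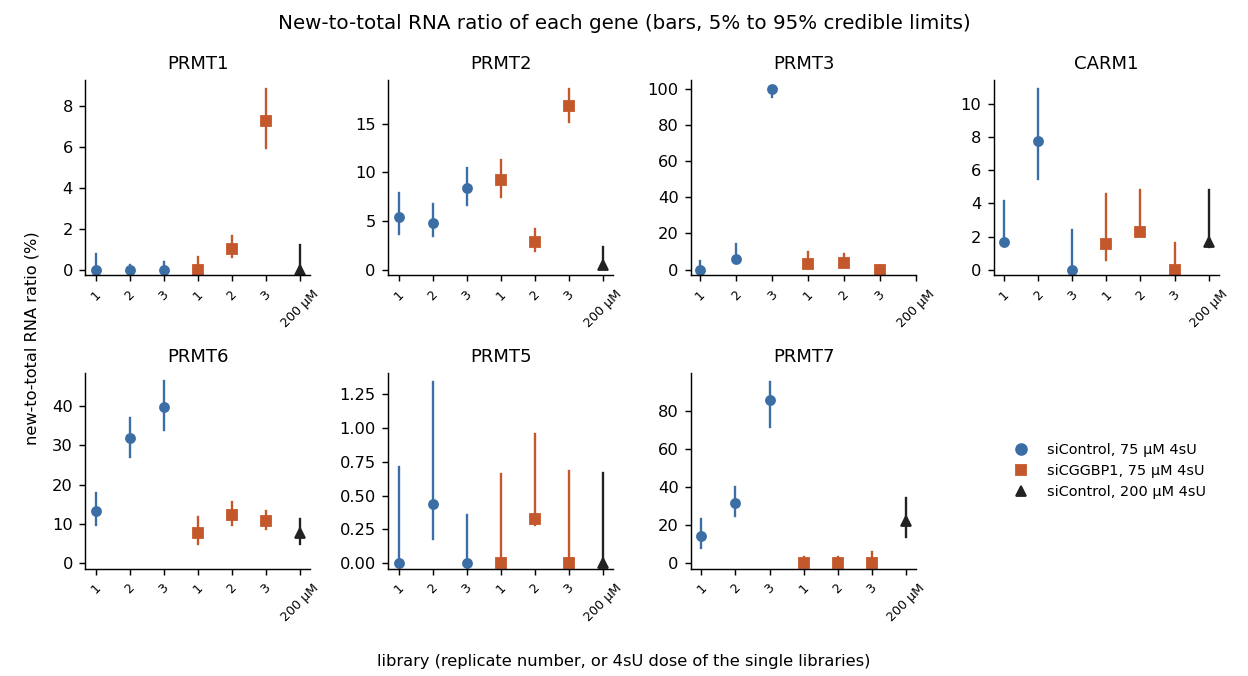
Ratio of new to total RNA for every gene in the 6 libraries at 75 µM 4sU and in the siControl library at 200 µM, in percent, as the maximum a posteriori value with the 5% and 95% credible limits as bars, on a separate axis for each gene, without the 200 µM library for PRMT3. The siCGGBP1 values of PRMT6 and PRMT7 lie below all siControl values at 75 µM, and PRMT3 reaches 100% in siControl 3 alone.

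PRMT5 (ENSG00000100462, chr14:22920525-22929408, minus strand), the main source of symmetric dimethylarginine, acts in a complex with WDR77 and methylates Sm proteins of the spliceosome. Its total RNA was 84.7, 79.5 and 107 RPM in siControl and 64.5, 87.5 and 42.3 in siCGGBP1. siCGGBP1 2 lay above 2 siControl libraries and the other siCGGBP1 libraries lay below all of them, with a log2 fold change of -0.50 (standard error 0.30). New reads were at or near the floor of 3 reads in both groups. Conversions numbered 21, 26.5 and 2 in siControl, 4, 10 and 0 in siCGGBP1, 60 at 0 µM and 1 at 200 µM. Per 100 covered T, the 75 µM libraries reached 0 to 0.075, and none exceeded the 0.1 of the 0 µM library. Reads with at least 2 conversions were nevertheless present, 2 in siControl 2 and 3 in siCGGBP1 2, and absent from the other libraries, including the one without 4sU. The ratio was at most 0.44%, with 3 or 4 new reads in the replicates numbered 2 and none elsewhere, so no fold is given. Over 601 to 1284 reads per library, the upper credible limit of the ratio was between 0.36% and 1.34%.

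PRMT7 (ENSG00000132600, chr16:68310951-68360852, plus strand), the enzyme limited to monomethylation, had the widest gap in label between the groups. Its total RNA was 17.0, 22.7 and 18.5 RPM in siControl and 15.7, 16.3 and 9.35 in siCGGBP1. All siCGGBP1 libraries were lower, the closest values being 17.0 and 16.3, and the log2 fold change was -0.51 (standard error 0.50). The siControl libraries without 4sU and with 200 µM had 23.0 and 15.9 RPM, so the 200 µM library overlapped the siCGGBP1 range. Conversions in PRMT7 reads numbered 23, 94 and 87 over the siControl libraries but only 1, 2 and 0 over the siCGGBP1 libraries. The 0 µM library had 1 conversion in 437 reads, or 0.011 per 100 covered T, and the 200 µM library had 21 conversions. Per 100 covered T the siControl libraries reached 0.598, 1.54 and 1.4, and the siCGGBP1 libraries 0.023, 0.051 and 0. Lower rates in siCGGBP1 without overlap were found for 4.65% of tested genes.

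The ratio of PRMT7 was 14.02%, 31.78% and 85.58% in siControl, 22.22% at 200 µM and 0 in all siCGGBP1 libraries. The credible limits did not overlap between the groups, with upper limits of 3.41%, 3.35% and 5.61% in siCGGBP1. In siControl 1 to 3 the limits were 8.17% to 23.29%, 24.9% to 39.98% and 71.47% to 94.81%. These did not overlap among the siControl replicates either, so the limits do not measure the spread between replicates. In new reads this was 24, 87 and 190 in siControl against none in siCGGBP1. Against a chosen floor of 3 reads in each siCGGBP1 library, PRMT7 new reads were 29.2-fold lower. The fold was 16.1 without siControl 3 and 39.7 without siControl 1. These folds are not limits, since the upper credible limits above allow more than 3 new reads in each siCGGBP1 library. A full absence in siCGGBP1 with more than 3 new reads in each siControl library was shared by 52 tested genes, or 0.513%. A ratio of 0 was itself common, at 31.9%, 29.6% and 59.2% of tested genes in siCGGBP1 1 to 3. In siControl 1 to 3 it was found for 23.2%, 22.5% and 57.2%. The depth behind these values was small, at 173, 274 and 222 reads in siControl and 159, 191 and 133 in siCGGBP1. Reads with at least 2 conversions numbered 4, 32 and 0 in siControl, and 0 in siCGGBP1 and in both single libraries, so that each of the 87 conversions of siControl 3 lay in a read of its own. PRMT7 reads in siCGGBP1 3 covered 13.8 T per read, against 20.6 to 28.0 in the other compared libraries. The part of this difference in the result was not tested.

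In siControl cells the ratio thus ranked PRMT7, PRMT3 and PRMT6 high and PRMT1 and PRMT5 near 0. Averaged over the 3 siControl replicates it was 43.8 ± 37.3% for PRMT7, 35.4 ± 56.0% for PRMT3, 28.3 ± 13.7% for PRMT6, 6.20 ± 1.89% for PRMT2, 3.16 ± 4.09% for CARM1, 0.147 ± 0.254% for PRMT5 and 0% for PRMT1 (SD, n = 3 each). PRMT7 exceeded 84.5%, 96.0% and 98.7% of tested genes in siControl 1 to 3, and PRMT6 exceeded 83.1% to 96.0% of them. The 3 least abundant members had the highest mean ratio. In PRMT6 and PRMT7 it was at least 13.16% in every siControl replicate but spread widely between them, and the conversion rate of PRMT6 in siControl 1 (0.469, interval 0.363 to 0.596) overlapped its 0 µM background. PRMT3 owed its mean to siControl 3.

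The wider arginine methylation machinery was followed in 72 further genes, of which 69 passed the read filter. The missing genes were PRMT8, the brain-enriched member, with no read in the 3 siControl libraries, PRMT9 with 2.42 ± 0.633 RPM (SD, n = 3) and the Tudor-domain gene TDRKH. edgeR called none of the 69 in total RNA in either direction, and DESeq2's Wald test called DDAH2. At an unadjusted p under 0.05 there were 4 genes higher and 12 lower, or 23.2% of the list against 16.4% of all tested genes. The median log2 fold change was -0.19, with 44 genes lower and 25 higher in siCGGBP1, beside 0.00 over all tested genes. None of the 69 was called in newly synthesized RNA, and none had an unadjusted p under 0.05 there.

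**Figure D4:**
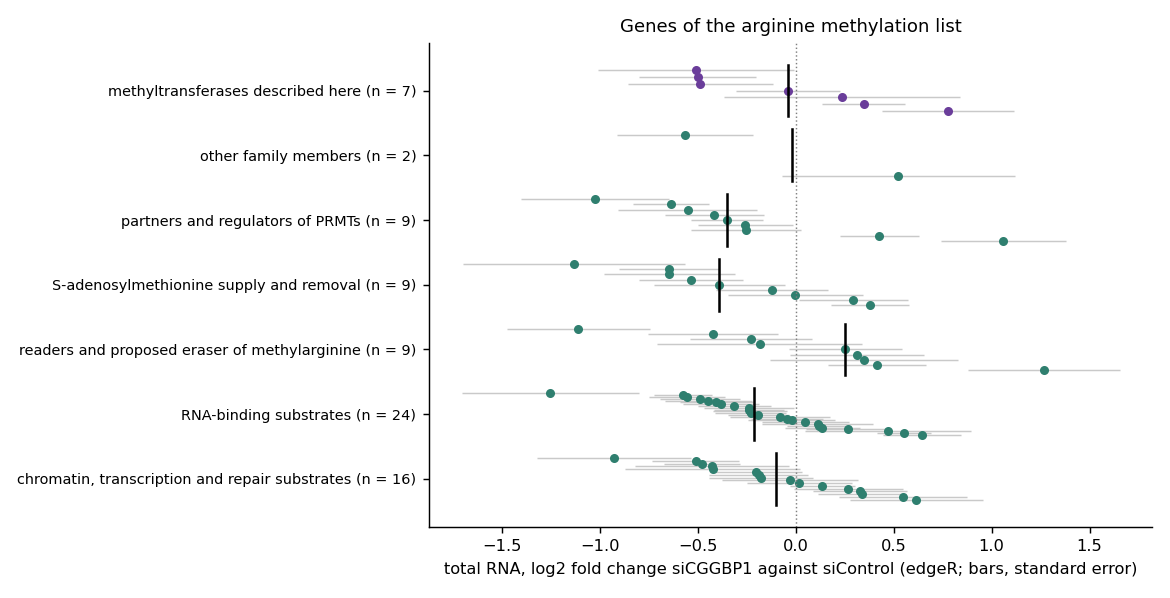
Log2 fold change of total RNA (siCGGBP1 against siControl, edgeR) for the 7 methyltransferases and for the 69 tested genes of the wider list by group, with standard errors as bars and the median of each group as a vertical line. Points of every group lie on both sides of 0. The medians run from -0.39 for S-adenosylmethionine supply and removal to 0.25 for the group of readers and the proposed eraser, which also holds DDAH1 and DDAH2.

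Among partners and regulators of the enzymes, 7 of 9 genes had a lower mean in siCGGBP1 and the median log2 fold change was -0.35. RIOK1, an adaptor that brings substrates to PRMT5, averaged 49.2 ± 17.1 RPM in siControl against 24.6 ± 6.39 in siCGGBP1 (SD, n = 3 each; log2 fold change -1.02, adjusted p = 0.191 in edgeR). BTG2, an antiproliferative protein that binds PRMT1, averaged 27.4 ± 7.37 RPM in siControl against 58.0 ± 5.58 in siCGGBP1 (SD, n = 3 each; log2 fold change 1.06, adjusted p = 0.113 in edgeR). Among the genes of S-adenosylmethionine supply and removal, 7 of 9 were lower, with a median of -0.39. MAT2B, the regulatory subunit of methionine adenosyltransferase, had the largest difference of this group (log2 fold change -1.13, adjusted p = 0.348 in edgeR) and AMD1, which diverts S-adenosylmethionine to polyamines, followed (-0.65, adjusted p = 0.223 in edgeR). Neither group had a called gene.

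The group of readers and the proposed eraser also held DDAH1 and DDAH2, which are neither. Its median was 0.25, the value of DDAH1, with 5 of 9 genes higher. DDAH2, of the family of enzymes that break down free dimethylarginine, averaged 43.6 ± 16.6 RPM in siControl against 105.6 ± 46.1 in siCGGBP1 (SD, n = 3 each; log2 fold change 1.27, adjusted p = 0.118 in edgeR). AKAP1, a mitochondrial anchoring protein with a Tudor domain, had the opposite sign (-1.11, adjusted p = 0.149 in edgeR). Of the 24 RNA-binding substrates, 16 were lower, with ALYREF, an mRNA export adaptor, at -1.25 (adjusted p = 0.184 in edgeR) and the cold-inducible protein CIRBP at 0.64 (adjusted p = 0.126 in edgeR). Of the 16 chromatin, transcription and repair substrates, 9 were lower, with the cell cycle factor E2F1 at -0.93 (adjusted p = 0.262 in edgeR) and the coactivator NCOA3 at 0.62 (adjusted p = 0.398 in edgeR). The related enzymes METTL23 and NDUFAF7 had log2 fold changes of -0.57 and 0.52, each under 2 standard errors from 0.

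Genes next to the methyltransferases on the chromosome were examined as local context. The nearest tested genes were BCL2L12 and AP2A1 for PRMT1, DIP2A for PRMT2, HTATIP2 and FANCF for PRMT3, RBM23 and HAUS4 for PRMT5, RNPC3 and NTNG1 for PRMT6, SLC7A6OS and ZFP90 for PRMT7, and TMED1 and YIPF2 for CARM1. FANCF and RNPC3 lie 2113 kb and 3501 kb away. None was called in total RNA by edgeR. SLC7A6OS, which shares the promoter region of PRMT7 on the opposite strand, had a log2 fold change of -0.22 (standard error 1.20) in total RNA. Its new reads numbered 2, 33 and 0 in siControl and 0, 42 and 0 in siCGGBP1, so the absence of new reads seen for PRMT7 was not seen for it in siCGGBP1 2. The other neighbour, ZFP90, lies 169 kb away. ZFP90 had new reads numbering 35, 0 and 28 over the siControl libraries and 0, 0 and 1 over the siCGGBP1 libraries. It too had few in siCGGBP1, but it also had none in siControl 2, and in siControl 3 all of its 28 reads were new reads. SMPD3, which is not among the tested genes, overlaps the end of PRMT7 on the opposite strand. SLC7A6OS had only 3 and 7 reads in siControl 3 and siCGGBP1 3. YIPF2 overlaps the end of CARM1 on the opposite strand and had a log2 fold change of -0.66 (standard error 0.85). HAUS4 and RBM23, on either side of PRMT5, had log2 fold changes of 0.49 (standard error 0.27) and 0.42 (standard error 0.38). PRMT5 had -0.50 (standard error 0.30), and all 3 values lay within 2 standard errors of 0.

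The total RNA patterns most like those of 3 members were sought by Pearson correlation of log2 RPM over the 8 libraries, which share depth and library preparation. For PRMT7 the closest genes were CCBE1 (r = 0.972), PHF5A (r = 0.969) and ABL2 (r = 0.965). For PRMT5 they were AC008878.3 (r = 0.974), ARHGEF18 (r = 0.974) and VSIG10 (r = 0.973), and for PRMT1 MRPL58 (r = 0.978), SFN (r = 0.95) and DLG4 (r = 0.943). With 8 libraries and 10138 genes these values are a description only.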

How the data were processed

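SLAM-Seq libraries of U-2OS cells were compared between 3 siControl and 3 siCGGBP1 replicates at 75 µM 4sU. Single siControl libraries at 0 and 200 µM 4sU gave the background and a further dose. As deposited by the authors, the 4 kinds of expected count (reads, conversions, T positions covered, and reads carrying 2 or more conversions) come per gene from GRAND-SLAM. Ribosomal reads had been filtered out with Bowtie2 2.3.0 and the rest mapped to GRCh38 with STAR 2.5.3a, both named in the submitters' processing notes. The values named min2 in the file are taken to be these last reads. The new-to-total RNA ratio, deposited by the authors as a fraction, was used as its maximum a posteriori value with credible limits and is printed in percent. No removal of PCR duplicates is named, and a read that matched several genes was counted in fractions.

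Counts were rounded to whole numbers, and new reads were reads multiplied by the ratio. Both were fitted over the 10138 filtered genes with edgeR 4.0.16 (quasi-likelihood test, TMM factors from total reads, Benjamini-Hochberg adjustment) in R 4.3.3. A standard error is the size of the log2 fold change over the root of its F statistic. Intervals are exact binomial 95% intervals (scipy 1.17.1). Folds against a group with at most 3 new reads in every library are set against 3 reads per library at the largest scaling of that group. This floor was chosen and does not come from the credible limits. The total RNA fit was checked on simulated counts that spread less between replicates than the real ones. The fit of newly synthesized RNA was not checked in this way. The alternatives were DESeq2 1.42.0, its size factors, no filter, a replicate block, leaving out each replicate, the posterior mean ratio, conversion counts, reads with at least 2 conversions, and library sizes from new reads.

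The family and the gene list were chosen with earlier results of these data known. Genes named in the text are the 7 members, CGGBP1, the markers of cell type, the tested neighbours, list genes that were called, in each group of the list the 2 with the largest absolute log2 fold change, and the 3 genes most like PRMT7, PRMT5 and PRMT1. PRMT8, PRMT9 and TDRKH are named as the list genes below the read filter, a naming outside that rule made after values were seen, and WDR77 only as background. DDAH1 is named for its place in a group median and SMPD3 as an overlapping gene, also outside that rule and after values were seen. The search for repeats used RefSeq windows and GENCODE exons. Gene coordinates are those of GRCh38.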

Additional observations from a re-analysis of the deposited data

Results flagged for a closer look

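The siControl library at 200 µM 4sU took no part in the comparison, and its conversions lay above those of the library without 4sU for 2 of the 7 genes, with binomial intervals that did not overlap. The same held for 39.0% of the 9967 tested genes with covered T in both libraries. PRMT2 had 0.0769 conversions per 100 covered T at 200 µM (31 conversions, interval 0.052 to 0.109) and 0.015 at 0 µM (interval 0.008 to 0.025). PRMT7 had 0.446 at 200 µM (21 conversions, interval 0.276 to 0.681) and 0.011 at 0 µM (interval 0 to 0.061). Both rates at 200 µM were below those of all 3 siControl libraries at 75 µM, and neither gene had a read with at least 2 conversions at 200 µM. The intervals were apart in the other direction for 2 more members and for 8.78% of these genes. PRMT5 had 0.003 at 200 µM (interval 0 to 0.017) and 0.1 at 0 µM (interval 0.076 to 0.128), and PRMT6 had 0.181 (interval 0.131 to 0.243) and 0.4 (interval 0.318 to 0.496). Over all genes the 200 µM library had 0.218 conversions per 100 covered T, within the range of the 75 µM libraries.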

How the results depend on the processing

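No member was called in total RNA under any alternative, and in newly synthesized RNA PRMT7 was called by DESeq2's Wald test alone. The total RNA log2 fold changes of PRMT2, PRMT5, PRMT6, PRMT7 and CARM1 kept their sign in all 10 alternatives, with PRMT7 between -0.65 and -0.29 and PRMT6 between 0.41 and 0.96, while PRMT1 changed sign in 2 and PRMT3 in 1. In newly synthesized RNA, PRMT1, PRMT2, PRMT6 and PRMT7 kept their sign in all 14 alternatives, PRMT5 changed sign in 5, and PRMT3 and CARM1 in 1 each. The 143 genes called in total RNA became 371 with DESeq2 and 327 with no filter, and 48 to 148 when a replicate was left out. The 5 genes called in newly synthesized RNA became 17 with DESeq2, 18 with conversion counts, 3 with reads of at least 2 conversions, 3 with library sizes from new reads, and 3 to 6 when a replicate was left out. With the replicate block they became 2 and the total RNA calls 161. The labels do not say whether replicate numbers mark a shared batch, and they were not taken to pair the samples. Same-numbered libraries deviated together at r = 0.105, 0.172 and 0.0835 in total RNA. Libraries of different numbers had r = -0.0989 to -0.0193, so each library correlated best with its own number. With the replicate block, the PRMT3 log2 fold change of new reads moved from -4.36 to -0.86. The 0 called genes of the arginine methylation list became 1 with DESeq2, 1 with no filter and 1 with the replicate block, DDAH2 each time, and 0 to 2 when a replicate was left out, where DDAH2 and MAT2B were called without siCGGBP1 replicate 3. Dividing by gene length kept 5 of the 6 neighbouring pairs in the order of levels, and asking for 3 CGG units in place of 2 left 1 gene of 4. The cause of these differences was not tested. Depth limits PRMT3 and PRMT7 most, where 98 to 274 reads per 75 µM library stand behind each ratio.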
